A study of Saccharomyces cerevisiae with 6 samples.

Results

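The genes described here are the amino acid biosynthesis genes of budding yeast, 56 open reading frames of 6212 identifiers in the table, taken by systematic name. They are HIS, TRP, ARO, ARG, LYS, LEU, ILV, BAT, HOM, THR, SER and PRO genes, the genes of glutamate, glutamine and asparagine synthesis, and GCN4. Cells with doxycycline in the medium were compared with cells without it. Both were the strain mmr09-4 of the cml476 background, in which a kanMX4-tetO7 cassette stands directly before the YPI1 coding region, so that doxycycline shuts YPI1 off. The YPI1 protein binds and regulates Glc7, yeast protein phosphatase 1. Cultures in YPD, a rich glucose medium, were diluted and given 100 µg/ml doxycycline in ethanol and water for 2, 4 or 6 h, or the same solvent alone for the same time. For every time point, 1 pair of RNAs was hybridised to 2 arrays of opposite dye. Untreated cells carried the tetO7 promoter too, and with no strain of native YPI1 promoter analysed here, YPI1 shut-off and doxycycline as such cannot be told apart.

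Yeast makes all the amino acids of its proteins from central carbon intermediates and ammonium or glutamate. Many of the enzymes are under general control: when amino acids run short, the kinase Gcn2 acts on translation initiation, the GCN4 mRNA is translated more, and the activator Gcn4 raises transcription across the pathways at once. Single pathways add their own regulators, such as Leu3 for leucine and Lys14 for lysine. Because GCN4 is controlled mainly in translation, the level of its mRNA need not follow the activity of its protein. Rich medium supplies amino acids, and these genes are then known to run at a basal level.

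Each value is a log2 ratio of doxycycline-treated over untreated cells for 1 gene on 1 array, so a positive value means more mRNA in treated cells. Arrays held values for 4250 to 4804 identifiers. Of the 56 genes, 46 had both arrays at 2 h, 56 at 4 h and 53 at 6 h, and 44 had all 6 values. YPI1 fell, to −4.39 ± 0.48 after 2 h, −5.48 ± 0.23 after 4 h and −6.30 ± 0.19 after 6 h (SD, n = 2 arrays of 1 RNA pair), below 0 on 6 of 6 arrays. Its mean of −5.39 passed the limma test (adjusted p = 0.0104). The direction, treated over untreated, was itself taken from YPI1 lying below 0, so YPI1 is no separate check of it. The SD of a time is technical throughout, since both arrays of a time share their RNA. The arrays of a time had a Pearson correlation over all genes but YPI1 of −0.47 (2 h), −0.32 (4 h) and 0.87 (6 h), and with YPI1 of −0.40, −0.17 and 0.87. Among the amino acid genes alone r was −0.27, −0.17 and 0.89, a description over genes that share the same arrays. Ratios at 2 and 4 h were therefore small against the difference between dye orientations, and those at 6 h were not.

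**Figure D1:**
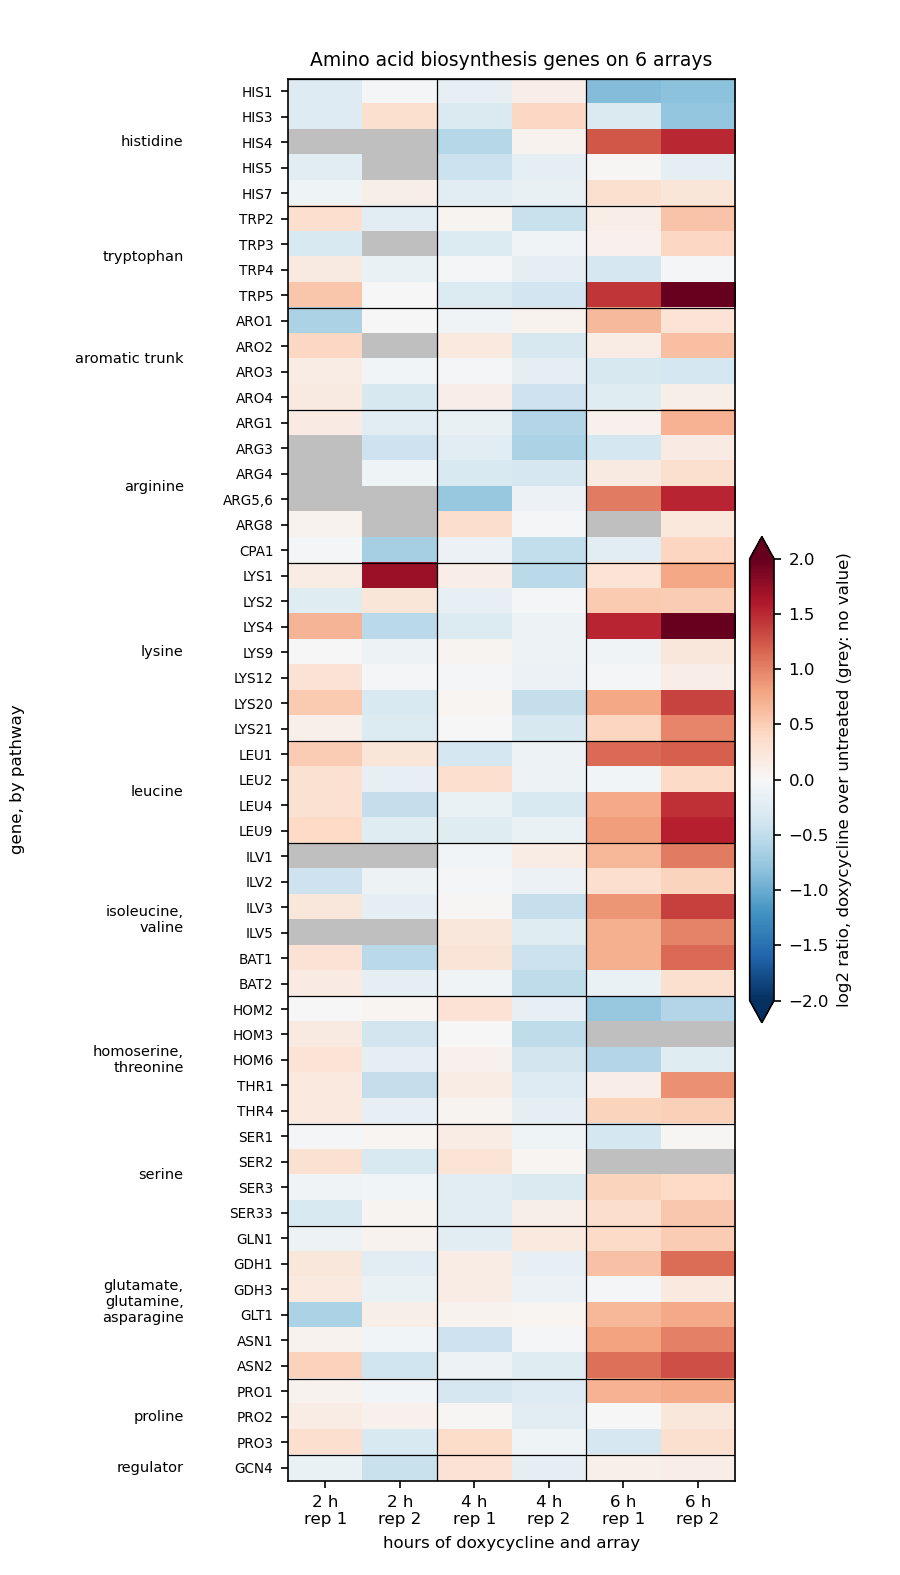
Log2 ratios of doxycycline-treated over untreated cells for the amino acid genes (rows, by pathway, with 1 gene not shown) on the 6 arrays (columns, 2 per time). Red is higher and blue lower in treated cells, colours end at 2 in size, and grey cells have no value; LYS4 and TRP5 at 6 h are the darkest rows, and most rows have mixed colours at 2 h.

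At 2 h no common shift of the amino acid genes was seen. Their median log2 ratio was 0.01 over 46 genes, beside −0.01 over all 4119 genes with both arrays. The array medians were 0.17 and −0.14, of opposite sign on the arrays of opposite dye. Opposite signs on the arrays were found for 35 of 46 genes, or 76.1%, against 66.5% of all genes. One sign on both arrays was found for 4 genes above 0 (8.7%, background 16.8%) and 7 below 0 (15.2%, background 16.3%). Those below 0 included HIS1, CPA1, LYS9, ILV2, SER3 and GCN4. With 1.5-fold as the limit on the mean, LYS1 passed as the higher gene of the 46, beside 0.0486% of all genes, and none of the 46 was 1.5-fold lower (background 0.0971%) or 2-fold lower (background 0.0486%). LYS1 (YIR034C), which forms lysine from saccharopine in the last step, had 0.16 and 1.73 at 2 h, a mean of 0.94 ± 1.11. The value rests on 1 of its arrays, the one whose labels name Cy3 for both channels.

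At 4 h more of the genes lay below untreated cells than above, by small amounts. Their median was −0.13 over 56 genes, with array medians of −0.04 and −0.18, beside 0.01 over all 4691 genes. Both arrays were below 0 for 24 of 56 genes, or 42.9%, against 17.5% of all genes. Both were above 0 for 2, SER2 and GLT1, or 3.57%, against 18.1%. Opposite signs were found for 29, or 51.8%, against 64% of all genes. None passed 1.5-fold in either direction (background 0.192% lower and 0% higher) or 2-fold (background 0.064% lower). The 4 h ratios went with gene length, with a Spearman correlation of −0.35 over the 56 genes and −0.29 over all genes. Each gene was therefore also set against matched genes, by subtracting the median ratio of 20 genes of its chromosome with the closest lengths. On that scale the median was −0.12, with 23 of 56 genes below 0 on both arrays (41.1%, background 19.1%) and 3 above (5.36%, background 18.7%). The array medians on that scale were −0.02 with treated RNA in Cy5 and −0.15 in Cy3. With a lowess curve on length removed they were 0.01 and −0.16.

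At 6 h most amino acid genes had more mRNA in treated than in untreated cells. The median was 0.39 over 53 genes (array medians 0.32 and 0.47), beside −0.10 over all 4160 genes. Both arrays were above 0 for 35 genes (66%, background 39.4%) and below 0 for 6 (11.3%, background 48.3%), with opposite signs for 12 (22.6%, background 12.1%). A mean of at least 2-fold with 1 sign on both arrays was reached by 10 genes, all higher, which is 18.9% against a background of 9.81%. They were HIS4, TRP5, ARG5,6, LYS4, LYS20, LEU1, LEU4, LEU9, ILV3 and ASN2. None of the 53 was 2-fold lower, where the background was 8.08%. At 1.5-fold 18 were higher (34%, background 21.1%) and 2, HIS1 and HOM2, lower (3.77%, background 28.1%). Relative to matched genes the count of 2-fold genes was 3 in place of 10 (5.66%, background 2.63%).

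**Figure D2:**
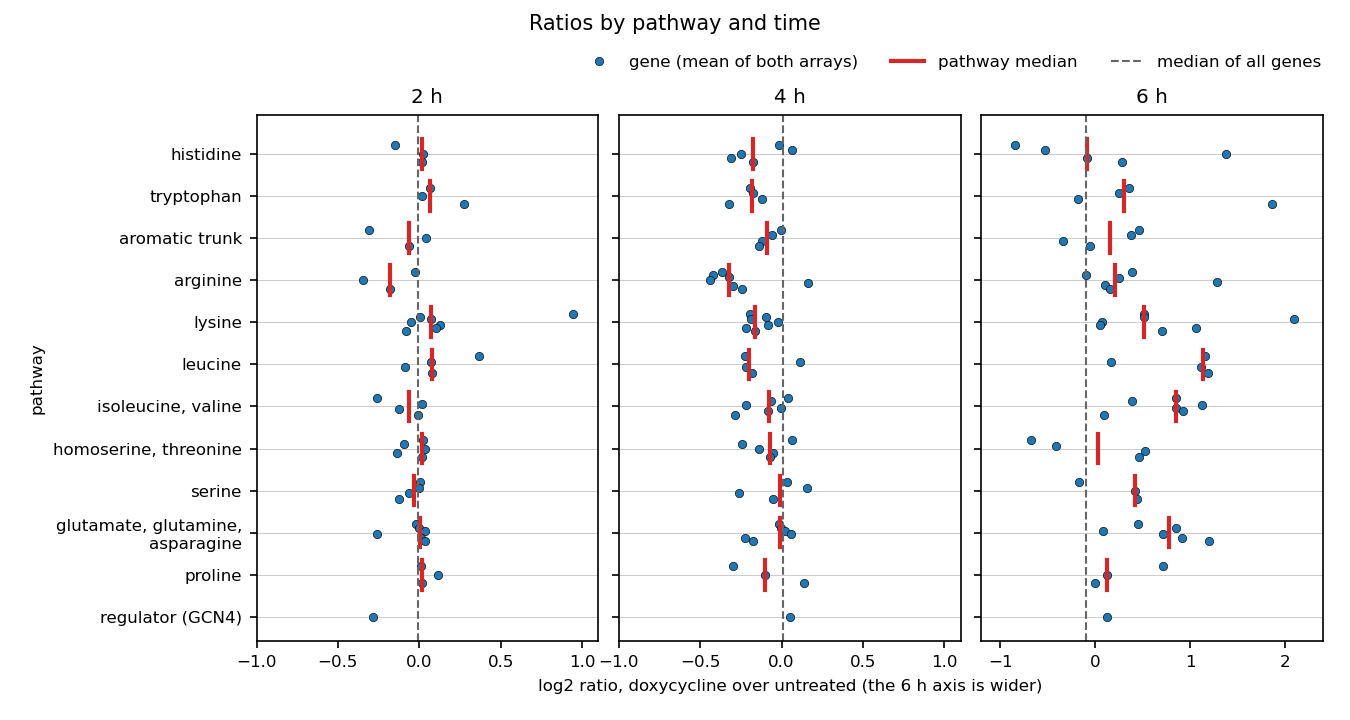
Mean log2 ratio of both arrays for each amino acid gene (blue points) by pathway at 2, 4 and 6 h, with the pathway median (red bar) and the median of all genes (dashed line). The arginine genes lie farthest left at 4 h with a median of −0.32, and the leucine genes farthest right at 6 h with a median of 1.14.

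Ratios at 6 h went with gene length across the genome. Over the 53 amino acid genes the Spearman correlation of the 6 h ratio with annotated length was 0.67, and over 3921 genes 0.63, again a description of 1 RNA pair. The amino acid genes had medians of −0.27 under 1000 bp, 0.21 at 1000 to 1499 bp, 0.91 at 1500 to 1999 bp and 1.33 at 2000 to 2999 bp, with 4, 30, 9 and 6 genes. All genes had medians of −0.53, 0.11, 0.57 and 0.86 in those bins. From 3000 bp on, the medians were lower again, at 0.49 for 4 amino acid genes and 0.44 for 263 genes in all. Chromosomes X to XIII departed from this between 2000 and 2999 bp, where their median was −0.33, against 1.20 on the other chromosomes. Those others were not compared one by one, and large shifts on matching were seen there too. HOM2 of chromosome IV, at 1098 bp, had −0.68 as deposited and 0.08 relative to matched genes. GLN1 of chromosome XVI, at 1113 bp, had 0.45 and 1.09. Only 4 of the 53 genes were shorter than 1000 bp, against 1611 of 3921, so short genes were rarer in the list.

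Relative to matched genes the 6 h median of the amino acid genes was 0.20, beside −0.01 over all genes. The array medians were 0.05 and 0.31. Both arrays were above 0 for 30 genes (56.6%, background 36%) and below 0 for 14 (26.4%, background 38.4%). At 1.5-fold 9 genes were higher (17%, background 9.82%), namely TRP5, LYS4, LYS20, LYS21, ILV2, ILV3, BAT1, GLN1 and ASN2, and 1, HIS1, was lower (1.89%, background 10.1%). The 3 past 2-fold were LYS4, ILV2 and GLN1 (5.66%, background 2.63%), none was 2-fold lower (background 2.91%), and ILV2 and GLN1 were not past 1.5-fold as deposited. With a lowess curve on length alone removed, the 2-fold genes were TRP5 and LYS4 (3.77%, background 3.21%). How much of the 6 h shift of the list belongs to length and how much to these genes was not tested.

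**Figure D3:**
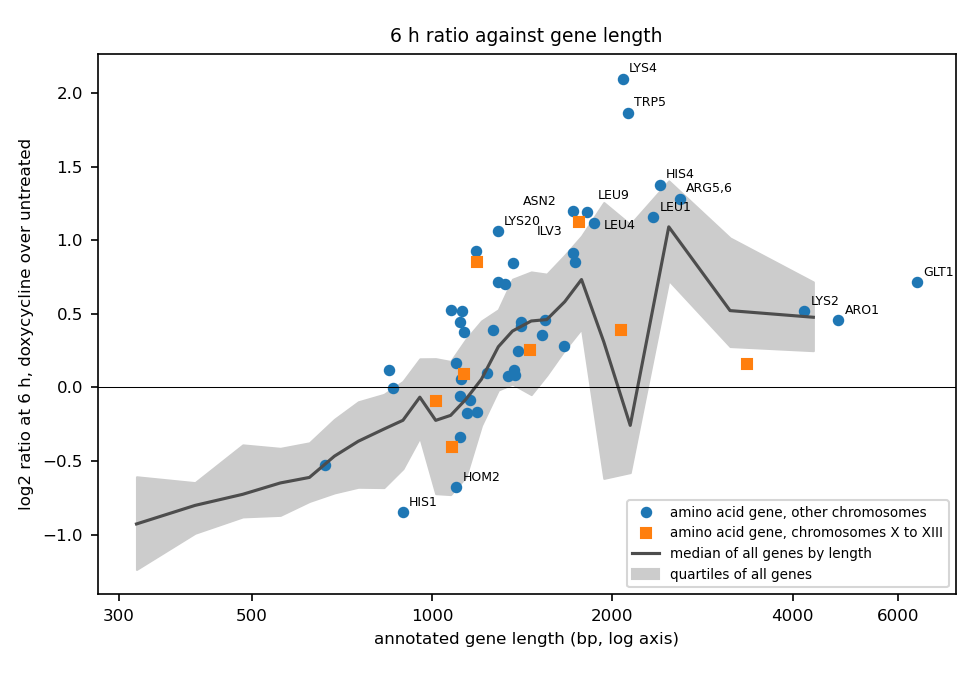
Log2 ratio at 6 h against annotated gene length (log axis) for 53 amino acid genes, as blue circles and, on chromosomes X to XIII, orange squares. The line and band are the median and quartiles of 3921 genes in 25 length bins. The line rises to 0.73 near 1776 bp, drops to −0.26 near 2142 bp and is at 1.09 near 2484 bp. LYS4 at 2.10 and TRP5 at 1.87 are the highest amino acid genes and lie above the band near that drop. Some others, such as LYS20, also lie above it.

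**Figure D4:**
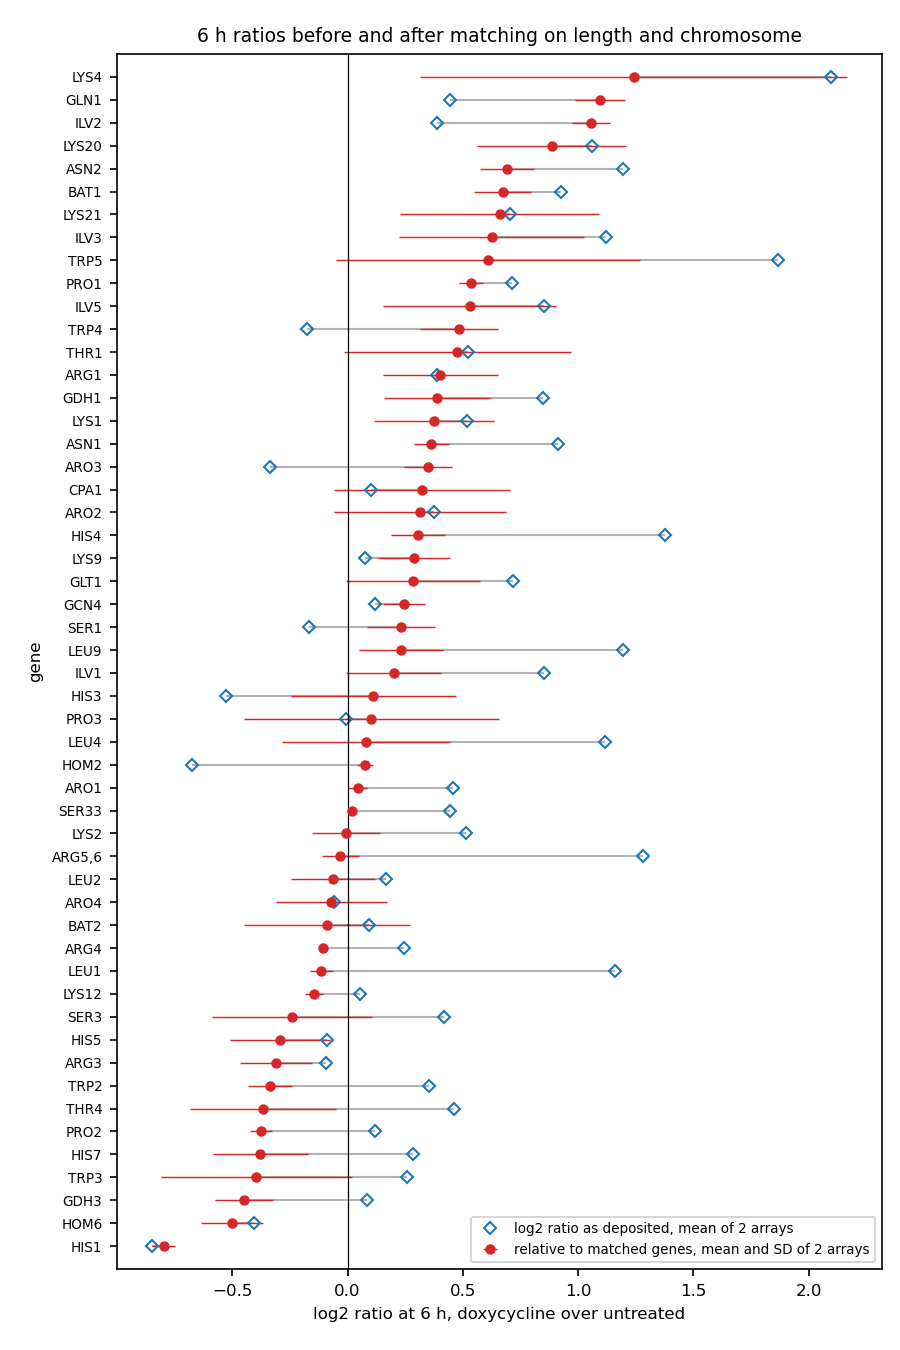
Log2 ratio at 6 h of amino acid genes with both arrays (1 gene not shown) as deposited (open blue diamonds) and relative to 20 matched genes of like length and chromosome (red points, mean and SD of 2 arrays). Genes are ordered by the matched value, with LYS4 at 1.24 on top and HIS1 at −0.80 at the bottom; LEU1, ARG5,6 and HIS4 move far to the left.

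The dye orientation also moved with the list. The array with treated RNA in Cy5 was higher than its partner by a median of 0.33 at 2 h, 0.16 at 4 h and 0.30 at 6 h for the amino acid genes, and by 0.05, 0.03 and 0.11 for all genes. At 6 h 45 of 53 genes were higher on the Cy5 array, or 84.9%, against 63.6% of all genes. The 6 h median of the list was 0.47 with treated RNA in Cy5 and 0.32 in Cy3. Relative to matched genes it was 0.31 in Cy5 and 0.05 in Cy3. With a lowess curve on length removed it was 0.33 and 0.04. The part of dye in the 6 h shift was not tested.

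GCN4 (YEL009C), the activator of general control, had no 1.5-fold ratio at any time. Its arrays gave −0.13 and −0.44 at 2 h, 0.29 and −0.19 at 4 h, then 0.10 and 0.14 at 6 h. It was below 0 on both arrays of 2 h, divided at 4 h and above 0 at 6 h, with a mean over the times of −0.04 (limma SE 0.19). The 6 h value relative to matched genes was 0.24.

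The arginine genes were the lowest pathway at 4 h. Their median was −0.32 (array medians −0.21 and −0.34, 7 genes), and 6 of 7 lay below 0 on both arrays, beside 17.5% of all genes. Relative to matched genes the median was −0.30, again with 6 of 7 below 0 on both arrays, beside 19.1% of all genes. ARG5,6 (YER069W), which encodes the acetylglutamate kinase and reductase, had −0.76 and −0.12 at 4 h. ARG3, ornithine carbamoyltransferase, had −0.21 and −0.63. ARG1 (YOL058W), argininosuccinate synthetase, had −0.15 and −0.58. The lower of each pair of arrays differed between these genes, so no single array made the pathway low. ARG4, argininosuccinate lyase, was the steadiest with −0.30 and −0.34. CPA1, of carbamoyl phosphate synthesis, had −0.11 and −0.49. The exception was ARG8, the mitochondrial acetylornithine aminotransferase, with 0.35 and −0.02.

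At 6 h the same pathway was spread around the genome's curve. ARG5,6 had 1.04 and 1.52, a mean of 1.28 ± 0.33 or 2.43-fold, but −0.03 relative to matched genes. ARG1 had 0.08 and 0.69, and ARG3 had −0.35 and 0.16. The pathway median relative to matched genes was −0.07 over 6 genes, and ARG8 had no value on 1 of the arrays. At 2 h CPA1 was the arginine gene farthest below 0, with −0.03 and −0.66, and only 3 of the 7 had both arrays.

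Histidine genes did not move together at 6 h. HIS1 (YER055C), the ATP phosphoribosyltransferase of the first step, had −0.26 and −0.04 at 2 h, −0.16 and 0.14 at 4 h, then −0.87 and −0.82 at 6 h. It was the lowest amino acid gene at 6 h, with a mean of −0.85 ± 0.03 and −0.80 relative to matched genes, so both scales gave nearly the same value. HIS4 (YCL030C), whose product carries out several steps, had −0.57 and 0.07 at 4 h and 1.25 and 1.51 at 6 h, with no value at 2 h. Its 6 h mean of 1.38 ± 0.18, or 2.60-fold, became 0.31 relative to matched genes. HIS7, which makes the imidazole ring, had 0.32 and 0.25 at 6 h and −0.38 when matched. HIS3 gave −0.26, −0.29 and −0.77 on the 3 arrays with treated RNA in Cy5 and 0.32, 0.42 and −0.29 on the 3 in Cy3, in order of time, and its Cy5 value was the lower at each time. HIS5 was below 0 on both arrays of 4 h, at −0.42 and −0.20.

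In the aromatic branch, TRP5 had the highest ratio at 6 h. TRP5 (YGL026C), tryptophan synthase, had 0.56 and −0.01 at 2 h, −0.27 and −0.38 at 4 h, then 1.43 and 2.30 at 6 h. Its arrays lay on both sides of 0 at 2 h, below it at 4 h and above it at 6 h. The 6 h mean was 1.87 ± 0.62, or 3.65-fold, and 0.61 ± 0.66 against matched genes, with 0.14 and 1.08 on the arrays. TRP4, the anthranilate phosphoribosyltransferase, had −0.33 and −0.02 at 6 h but 0.49 when matched. TRP3 had 0.09 and 0.42 but −0.40 when matched, and TRP2, of anthranilate synthase, 0.13 and 0.57 but −0.34. The direction of these 3 genes at 6 h thus turned with matching. The 4 h means of the tryptophan genes lay between −0.32 and −0.12. Both 4 h arrays were below 0 for 3 of the 4, beside 17.5% of all genes, while TRP2 had 0.06 and −0.45. Relative to matched genes both were below 0 for 2 of the 4, beside 19.1% of all genes. ARO1, the multifunctional enzyme of the shikimate steps, had 0.64 and 0.27 at 6 h and 0.04 when matched.

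Lysine genes held the highest single ratio at 6 h. LYS4 (YDR234W), homoaconitase, had 0.69 and −0.54 at 2 h, −0.27 and −0.10 at 4 h, then 1.53 and 2.67 at 6 h. Both 6 h arrays were far above those of the earlier times. The 6 h mean was 2.10 ± 0.80, or 4.28-fold, and 1.24 ± 0.93 relative to matched genes, the highest of the amino acid genes on either scale but with arrays of 0.59 and 1.90. LYS20 (YDL182W), homocitrate synthase, which starts the pathway, had 0.78 and 1.35 at 6 h and 0.88 when matched. LYS21, its isozyme, had 0.43 and 0.98 and 0.66 when matched. The 3 genes act at the head of the pathway. LYS12, LYS9 and LYS1 act later. As deposited, LYS12 had −0.02 and 0.12, LYS9 −0.08 and 0.23, and LYS1 0.27 and 0.77. When matched, their means were −0.15, 0.29 and 0.375. LYS2, the aminoadipate reductase, had 0.53 and 0.50 and −0.01 when matched. The pathway median at 6 h was 0.52 over 7 genes, and 0.37 relative to matched genes.

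The leucine genes had the highest pathway median at 6 h as deposited but not relative to matched genes. The median was 1.14 over 4 genes as deposited, 0.01 relative to matched genes and 0.47 with the length curve removed, where it was again the highest of the pathways. LEU1 (YGL009C), isopropylmalate isomerase, had 0.50 and 0.24 at 2 h, −0.35 and −0.10 at 4 h, then 1.13 and 1.19 at 6 h. It was one-sided at each time and changed side at each step. Its 6 h mean of 1.16 ± 0.04 became −0.11 when matched and 0.40 with the length curve removed. LEU2, isopropylmalate dehydrogenase, had −0.05 and 0.38 at 6 h and 0.34 and −0.10 at 4 h.

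The isoleucine and valine genes had a 6 h median of 0.85 over 6 genes, 0.58 relative to matched genes and 0.42 with the length curve removed. Both arrays were above 0 for 5 of the 6 as deposited (39.4% of all genes) and for 5 relative to matched genes (36% of all genes). ILV3 (YJR016C), dihydroxyacid dehydratase, had 0.22 and −0.19 at 2 h, 0.03 and −0.47 at 4 h, then 0.88 and 1.37 at 6 h. It was divided by dye at both earlier times and above 0 at 6 h, with a mean of 1.12 ± 0.35 and 0.62 when matched. ILV5, the reductoisomerase, had 0.71 and 0.99 at 6 h and 0.53 when matched. ILV1, threonine deaminase, had 0.67 and 1.03 and 0.20 when matched. ILV2 (YMR108W), acetolactate synthase, had −0.42 and −0.10 at 2 h, −0.02 and −0.11 at 4 h, then 0.33 and 0.45 at 6 h. Its value of 1.06 relative to matched genes is higher than the deposited 0.39, since the genes matched to it on chromosome XIII had a median below 0. With the length curve removed ILV2 was at −0.30, so these corrections gave opposite directions.

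Homoserine and threonine genes were divided at 6 h. HOM2 (YDR158W), aspartate semialdehyde dehydrogenase, had 0.01 and 0.04 at 2 h, 0.29 and −0.17 at 4 h, then −0.76 and −0.59 at 6 h. Its 6 h mean of −0.68 ± 0.12 became 0.08 when matched but −0.60 with the length curve removed. HOM6, homoserine dehydrogenase, had −0.58 and −0.24 at 6 h and −0.50 when matched, where both arrays stayed below 0. THR4, threonine synthase, had 0.45 and 0.47, and −0.37 when matched. THR1, homoserine kinase, had 0.13 and 0.92. HOM3, the aspartate kinase, and SER2 of serine synthesis had no 6 h value. The threonine and homoserine median at 6 h was 0.03 as deposited and −0.15 when matched.

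The genes of glutamate, glutamine and asparagine synthesis had a 6 h median of 0.78 over 6 genes and 0.38 relative to matched genes. Both arrays were above 0 for 5 of the 6 as deposited (39.4% of all genes) and for 5 relative to matched genes (36%). The exception was GDH3, with −0.04 and 0.20 as deposited. Relative to matched genes GDH3 had −0.36 and −0.54, a mean of −0.45. GLN1 (YPR035W), glutamine synthetase, had −0.11 and 0.07 at 2 h, −0.22 and 0.19 at 4 h, then 0.39 and 0.50 at 6 h. Its matched value was 1.09 ± 0.11, again higher than the deposited 0.45, while with the length curve removed it was at 0.50. GLT1, glutamate synthase, had −0.63 and 0.12 at 2 h, 0.07 and 0.04 at 4 h, then 0.67 and 0.76 at 6 h. At 6438 bp it is the longest of the 56 genes, and its matched value was 0.28 ± 0.29.

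Of the proline genes, PRO1, the glutamate kinase of the first step, had 0.07 and −0.05 at 2 h, −0.34 and −0.26 at 4 h, then 0.69 and 0.73 at 6 h. Its arrays lay close together at each time, and the 6 h mean of 0.71 ± 0.03 was 0.54 ± 0.05 when matched. PRO2 had 0.01 and 0.23 at 6 h and −0.37 when matched, and PRO3 had −0.34 and 0.33. Among serine genes, SER1, the aminotransferase, had −0.35 and 0.02 at 6 h and 0.23 when matched.

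In 7 cases the list holds a pair of genes for the same reaction, and the genes of a pair are of like length. Only LYS20 and LYS21 lie on the same chromosome, so differences between chromosomes can enter the other pairs. BAT1 and BAT2, the mitochondrial and cytosolic branched-chain aminotransferases of 1182 and 1131 bp, differed at 6 h. BAT1 had 0.71 and 1.13, and BAT2 −0.13 and 0.31, a difference of 0.83 ± 0.02 and of 0.76 relative to matched genes. The 2 arrays gave 0.84 and 0.82. The difference was 0.33 and 0.08 at 4 h and 0.12 and −0.36 at 2 h, so BAT1 was higher on 5 of 6 arrays. GDH1 and GDH3, the NADP-dependent glutamate dehydrogenases of 1365 and 1374 bp, also differed at 6 h. GDH1 had 0.58 and 1.11, and GDH3 −0.04 and 0.20, a difference of 0.77 ± 0.20, or 0.84 when matched. On the 4 arrays of 2 and 4 h GDH1 minus GDH3 lay between −0.09 and 0.03.

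LYS20 lay above LYS21 at 6 h by 0.35 and 0.37, and ASN1 below ASN2, the asparagine synthetases, by −0.29 and −0.28. Between LEU4 and LEU9, the isopropylmalate synthases, the difference was −0.07 and −0.09, with LEU4 at 0.76 and 1.47 and LEU9 at 0.83 and 1.56. ARO3 and ARO4, the DAHP synthases that start the aromatic pathway, differed by −0.08 and −0.47, a mean of −0.28 that was 0.42 relative to matched genes, so its direction turned. SER3 and SER33, the phosphoglycerate dehydrogenases, differed by 0.09 and −0.14. With 1 RNA pair no p can be given for these differences. Signal from a near-identical copy can reach the partner's spot, and the probe sequences were not used here.

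**Figure D5:**
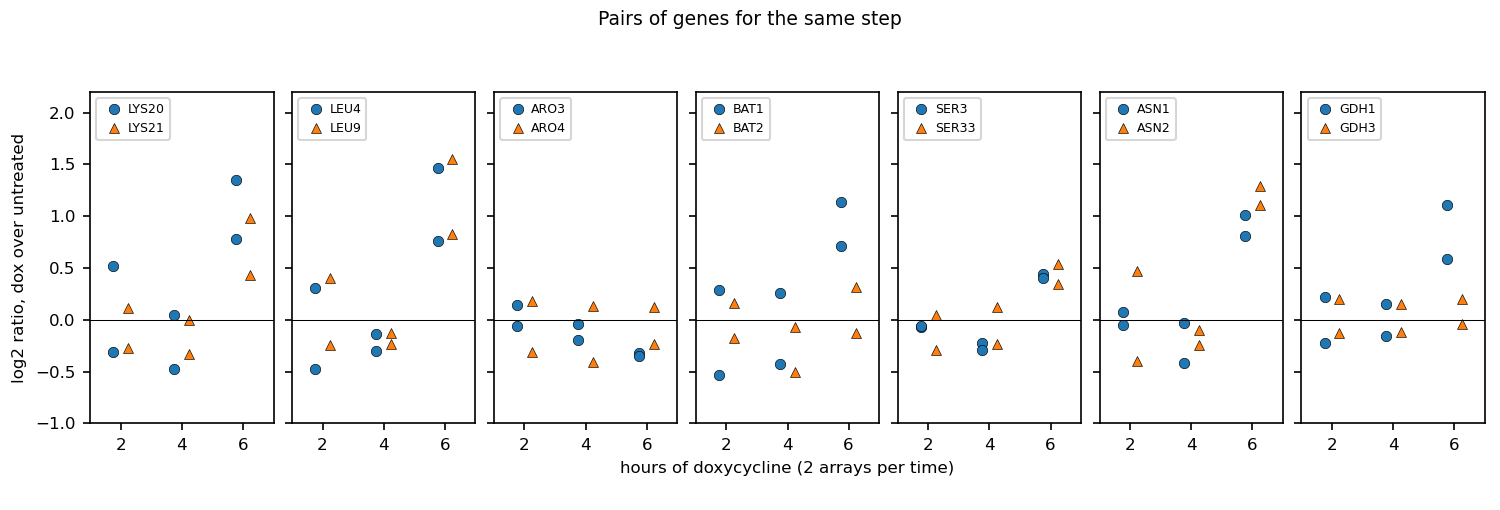
Log2 ratios of 7 pairs of genes for the same reaction on both arrays at 2, 4 and 6 h (circles for the gene named first in each panel, triangles for its partner). BAT1 and GDH1 lie above BAT2 and GDH3 at 6 h, while LEU4 and LEU9 overlap at each time.

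Over the 3 times together, no amino acid gene passed a test. The limma test of the mean over the times, with n = 3 RNA pairs and Benjamini-Hochberg adjustment over 3391 genes, called 0 of 44 tested genes, with 0 at an unadjusted p under 0.05. The background was 0% higher and 0.0295% lower, which is YPI1 alone, and 0.0885% higher and 0.206% lower at the unadjusted p. The lowest limma adjusted p among the 44 was 0.806. The limma slope on hours, through 0 at the start, also called 0 of 44 (background 0% higher and 0.059% lower), with 3 at an unadjusted p under 0.05, TRP5 and LYS4 higher and HIS1 lower. At that unadjusted p the background was 8.29% higher and 6.05% lower. The slopes were 0.21 per hour for LYS4, 0.19 for TRP5 and −0.10 for HIS1, each with a limma adjusted p of 0.306. None of the 44 had 1 sign on all 6 arrays, against 1% of genes above 0 and 0.973% below 0. Because a time has only 1 RNA pair, a ratio that differs between times adds to the error of the mean. Leaving out 4 h, the limma slope called 17 of the 44 amino acid genes (15 higher, 2 lower), beside 1745 of all 3391 genes. Leaving out the 2 h array with Cy3 for both channels, it called 2 of the 44, both higher, beside 108 of all 3391.

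Values below 0 on both 4 h arrays and above 0 on both 6 h arrays were found for 16 of 53 amino acid genes (30.2%, background 11.6%). They were HIS7, TRP3, TRP5, ARG1, ARG4, ARG5,6, LYS2, LYS4, LEU1, LEU4, LEU9, ILV2, SER3, ASN1, ASN2 and PRO1. The reverse order was found for 0 genes (background 12.1%). Gene length runs in opposite directions at these times, with all-gene Spearman correlations of −0.29 at 4 h and 0.63 at 6 h, and its part in this count was not tested.

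Other genes of amino acid metabolism also passed no test. Of 19 other pathway genes 13 were tested, and 0 passed the limma mean or slope test, with 0 and 3 at an unadjusted p under 0.05. SHM1 and SHM2, the serine hydroxymethyltransferases, were highest in mean over the times, with 6 h arrays of 0.99 and 1.90 and of 0.82 and 1.15. ARO7, chorismate mutase, and PHA2, prephenate dehydratase, were lowest, with 6 h means of −1.08 ± 0.10 and −0.84 ± 0.02 and matched values of −0.74 and −0.66. Of 14 regulators 12 were tested and 0 passed either limma test, with 0 and 4 at an unadjusted p under 0.05. GLN3, a GATA activator, was at 1.85 ± 0.35 at 6 h (0.45 when matched) and GCN20, which acts with Gcn2, at 1.25 ± 0.22 (0.54). ARG82 was at −0.96 ± 0.12 (−0.18) and PCL5, a cyclin that promotes Gcn4 breakdown, at 0.05 ± 0.34 (0.56). Of 7 catabolic genes 5 were tested and 0 passed, with 0 at an unadjusted p under 0.05 in either limma test. CAR2 and PUT2 had 6 h means of 0.97 ± 0.55 (0.56 when matched) and 0.76 ± 0.18 (−0.32). CAR1 and GDH2 had 0.32 ± 0.00 (0.88) and 0.41 ± 0.07 (−0.15), so that PUT2 and GDH2 turned direction with matching.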

How the data were processed

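The members and the gene lists were chosen with earlier results of these data known. The deposited values are log2 ratios, made by the authors from 2-colour arrays of treated against untreated cells. Per the labels, small spots (below 120 µm) and dim ones (below 100 units in Cy3 and Cy5) had been dropped. The normalization, spot averaging and turning of swapped arrays are not given in the sources used here. Neither is the log base, and folds assume base 2. The direction of the ratio was taken from YPI1 lying below 0 on every array. Intensities were not used here, and precision is limited by the number of arrays. The labels of 1 array at 2 h name Cy3 for each channel; it was treated as the swapped one.

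Identifiers were put in upper case and 5662 of 6212 matched a locus tag of the R64 annotation, which gave symbols, lengths and chromosomes. Both arrays of a time were averaged. A gene was counted at a time if its mean was past 2-fold or 1.5-fold with 1 sign on both arrays. This rule uses the mean of both arrays, not each array. limma 3.58.1 in R 4.3.3 (lmFit, eBayes) tested the mean and the slope over 3 time values for genes with 6 values, two-sided, threshold 0.05 after Benjamini-Hochberg adjustment, on 3391 genes. The p-values measure the spread between times, not between biological replicates. The lowess curve (statsmodels 0.14.6) had a span of 0.3 and 3 robust steps. The fits were tested on simulated data.

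Genes were named by a rule of 5 parts: GCN4; genes past 1.5-fold at any time; the highest and lowest mean of each pathway; the 4 highest and 4 lowest at 4 h and, relative to matched genes, at 6 h; and the 7 gene pairs. The values of 1 gene are not reported here singly, and it is part of the counts and medians. Other genes are named where a count or pathway is described, after their values were seen. Of the other lists the 2 highest and 2 lowest means were named. Alternatives were centring, length correction, matched genes, filters, left-out arrays and times, arrays as units, the dye, a replicate block and a robust variance.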

Additional observations from a re-analysis of the deposited data

Results flagged for a closer look

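Of the 46 amino acid genes picked by the naming rule given above, 16 had both arrays of one time on one side of 0 and both arrays of another time on the other side. This set differs from the 16 genes listed earlier for 4 h and 6 h: it holds GCN4 and HOM2 and lacks LYS2 and ARG4. The naming rule itself uses the size and sign of 4 h and 6 h values, so the count follows in part from the picking. It has no share of all genes beside it and is a description only. With 1 RNA pair per time the differences between times were not tested. As 6 h minus 4 h, the mean log2 ratio differed by 2.28 for LYS4, 2.19 for TRP5, 1.72 for ARG5,6, 1.39 for LEU1, 1.38 for LEU9, 1.37 for ASN2, 1.34 for LEU4, 1.14 for ASN1 and 1.02 for PRO1. The same difference, 6 h minus 4 h, was 0.75 for ARG1, 0.68 for SER3, 0.46 for HIS7, 0.45 for ILV2 and 0.43 for TRP3. Each was below 0 on both arrays of 4 h and above 0 on both of 6 h, an order found for 11.6% of all genes. The reverse order was found for 12.1% of all genes. LYS2 and ARG4, not picked by the rule, were also below 0 on both 4 h arrays and above 0 on both 6 h arrays. Shares of all genes for changes of side that involve 2 h are not given here. As 6 h minus 2 h, ILV2 differed by 0.65, SER3 by 0.48, GCN4 by 0.40 and HOM2 by −0.70, the last being above 0 at 2 h and below 0 at 6 h. LEU1 differed by −0.595 as 4 h minus 2 h.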

How the results depend on the processing

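No amino acid gene passed the test of the mean under any alternative run. The slope called 0 amino acid genes except in the following alternatives, which use fewer values. With 4 h left out it called 17 of 44, beside 1745 of all 3391 genes. Without the 2 h array with 1 dye label, an alternative chosen after seeing the data, it called 2 of 44, beside 108 of 3391. The deviations of replicate 1 correlated with r = 0.57 between 2 and 4 h but −0.71 between 2 and 6 h and −0.54 between 4 and 6 h. Replicate 1 had treated RNA in Cy5 at 2 and 4 h and in Cy3 at 6 h. The signs thus go with dye orientation and cannot show whether replicate numbers pair the arrays. With 6 arrays as units and a replicate block, 0 amino acid genes passed either test. YPI1 kept its direction everywhere, and relative to matched genes its mean of −5.26 no longer passed (limma adjusted p = 0.109); the cause was not tested. The 4 h median stayed below 0 under every alternative run. It was −0.04 without replicate 2 and −0.18 without replicate 1. The 2 h median changed side with the array left out. The 6 h median of 0.39 was 0.13 with the length curve removed and 0.20 relative to matched genes. Genes past 2-fold at 6 h numbered 10, 2 with the length curve removed, 3 relative to matched genes, 20 at 1.5-fold, and 6 to 14 with 1 replicate left out. Without chromosomes X to XIII, also chosen after seeing the data, the median was 0.44.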
